A study of Homo sapiens with 10 samples.

Results

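PC3-Epi cells had 35 gene entries at well above the PC3-EMT14 level that stayed within 20% below or 25% above that level when either OVOL1 or OVOL2 was overexpressed in PC3-EMT14. They are 35 of the 303 entries high in PC3-Epi and of 23170 entries in all. Only 17 of them are messenger RNA genes by the transcripts that carry their level. They include S100A2, SNX19, EPN3, SYK and ITGB6. The other 18 rest on small nucleolar RNA (snoRNA), small Cajal body RNA or microRNA entries, so the 35 as a whole are not a set of epithelial genes. The members were chosen by their measured levels. An entry had to reach 2 FPKM (a read level corrected for transcript length and library size) in PC3-Epi, a ratio of at least 4 over PC3-EMT14, and both OVOL ratios inside the limits above, each ratio being taken after adding 0.1 FPKM to both values. What these conditions fix is therefore given below as a description and was not tested.

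PC3 cells derive from a human prostate cancer. PC3-Epi is their epithelial, luciferase-expressing subpopulation (2 samples), and PC3-EMT14 is a mesenchymal population isolated from a co-culture of PC3-Epi with M2 macrophages (3 samples). Lentiviral lines were selected from PC3-EMT14, PC3-EMT14-OVOL1 by overexpression of OVOL1 (3 samples) and PC3-EMT14-OVOL2 by overexpression of OVOL2 (2 samples), and all 4 groups come from the luciferase-carrying PC3-Epi cells. RNA was sequenced as 50-base paired reads, and how the libraries were selected is not given in the sources used here. The group both OVOL lines are compared with in the files is PC3-EMT14 itself, the OVOL lines are single selected populations driven by a viral vector, and the files hold 1 pooled FPKM per group. From these pooled values no standard deviation, interval or test could be computed, and the depth per sample is unknown.

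OVOL1 and OVOL2 are zinc-finger transcription factors of epithelial tissues that repress mesenchymal regulators such as ZEB1 and so favour the mesenchymal to epithelial transition (MET). In MET, cells regain junction proteins such as E-cadherin and lose intermediate filaments such as vimentin. The epithelial to mesenchymal transition (EMT) is the opposite passage.

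The labels matched the levels of the overexpressed genes. OVOL1 was at 0.024 FPKM in PC3-EMT14, 11.3 in PC3-EMT14-OVOL1, 0.070 in PC3-EMT14-OVOL2 and 4.25 in PC3-Epi. OVOL2 was at 0.383 FPKM in PC3-EMT14, 0.562 in PC3-EMT14-OVOL1, 831 in PC3-EMT14-OVOL2 and 9.91 in PC3-Epi, so the OVOL2 line carried far more OVOL2 messenger RNA than PC3-Epi did. CDH1, encoding E-cadherin, was at 1.00 FPKM in PC3-EMT14 and 50.6 in PC3-Epi, and reached 16.2 with OVOL1 and 39.2 with OVOL2. VIM, encoding vimentin, was at 270.5 FPKM in PC3-EMT14, 42.5 in PC3-Epi, 183 with OVOL1 and 76.9 with OVOL2. Both lines thus lay between PC3-EMT14 and PC3-Epi for these 2 markers. Of 14 macrophage markers, 13 were under 0.5 FPKM in all 4 groups and 3 of them (C1QA, C1QB and C1QC) were listed at 0 throughout. The summed level of the 14 was 54.4 FPKM in PC3-EMT14, 13.5 in PC3-Epi, 51.4 with OVOL1 and 58.2 with OVOL2, nearly all of it CD68 at 54.1, 13.2, 51.2 and 57.8 FPKM. In bulk RNA of this kind, fewer cells of a type and less RNA per cell cannot be told apart.

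The short RNA members come with known sequences, and their lengths bear on the FPKM values. The 16 entries are 11 snoRNAs, 1 small Cajal body RNA and 4 microRNA hairpins of 55 to 126 bases (median 74, RefSeq). FPKM divides fragments by transcript length, so that a given number of fragments yields a high value on so short a transcript. The mature microRNAs encoded by the 4 hairpin members, and by the MIR4321 transcript that carries the AMH entry, are shown because they name what these entries stand for. They are from RefSeq (GRCh38.p14), written 5′ to 3′ with the seed (bases 2 to 8) in capitals, and no 2 of the 6 share a seed.
hsa-miR-877-5p: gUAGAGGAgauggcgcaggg
hsa-miR-877-3p: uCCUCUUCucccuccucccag
hsa-miR-4257: cCAGAGGUggggacugag
hsa-miR-4265: cUGUGGGCucagcucuggg
hsa-miR-3939: uACGCGCAgaccacaggauguc
hsa-miR-4321: uUAGCGGUggaccgcccugcg

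Most snoRNA members are of the C/D box class, which guides the methylation of ribosomal RNA and is processed from the introns of host genes. Sequences of 6 of them were read from the GRCh37 genome at their annotated positions. All 6 hold the D box letters CTGA and 4 also hold the C box letters TGATGA. The following 3 show both, every match in capitals, from chr6:31804853-31804919 (plus strand), chr17:27049600-27049671 (plus strand) and chr6:133136446-133136518 (plus strand).
SNORD52: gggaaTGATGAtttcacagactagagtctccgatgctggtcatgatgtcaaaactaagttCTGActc
SNORD4A: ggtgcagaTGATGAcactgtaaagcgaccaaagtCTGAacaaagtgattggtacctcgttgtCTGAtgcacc
SNORD101: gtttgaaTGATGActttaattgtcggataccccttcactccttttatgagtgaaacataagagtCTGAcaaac

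All 16 short RNA entries were listed at exactly 0 in PC3-EMT14 and in both OVOL lines. RNU86, a snoRNA now named SNORD139, was at 12551 FPKM in PC3-Epi. SNORD56 was at 1459, SNORD52 at 1240 and SNORD98 at 1054 FPKM. The next were SNORD30 at 573, SNORD50B at 532, SNORD4A at 462, SNORD101 at 381, SNORD99 at 366 and SNORD50A at 354 FPKM. Among the microRNA entries, MIR877 was at 223, MIR4257 at 163, MIR4265 at 24.7 and MIR3939 at 24.5 FPKM. SNORD12 was at 91.3 FPKM, and SCARNA27 was the lowest at 4.07. No fold is given against a group listed at 0. Of the 35 members, 14 had the test status OK in all 3 tables against PC3-EMT14. These 14 were 12 of the 17 messenger RNA members and the gene entries AMH and SCRIB described below. None was a short RNA entry, and some messenger RNA members lacked this status too.

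The genes around these short RNAs did not follow them. For 15 of the 16, another gene entry occupied the same locus (14 loci). Short transcripts filed under the same entry, which only NOP56 had, were left out. With these left out, none of those 14 entries had a PC3-Epi ratio of 2 or more. The ratios ran from 0.636 to 1.79, with a median of 1.07. RPL3, a ribosomal protein gene whose locus holds RNU86, was at 558 FPKM in PC3-EMT14, 501 in PC3-Epi, 618 with OVOL1 and 555 with OVOL2. RPS12, around SNORD101, was at 378, 363, 425 and 341 FPKM in the same order. SNHG5, a non-coding host gene whose locus (chr6:86386725-86388451, hg19) holds the neighbours SNORD50A and SNORD50B, was at 24.3, 22.6, 22.1 and 22.3 FPKM. SNHG1, around SNORD30, had the highest ratio, at 39.8 FPKM in PC3-EMT14, 71.3 in PC3-Epi, 47.7 with OVOL1 and 45.2 with OVOL2. The NOP56 transcripts around SNORD56 were at 122 FPKM in PC3-EMT14, 179 in PC3-Epi, 135 with OVOL1 and 130 with OVOL2. The whole NOP56 entry was at 122, 1139, 319 and 329 FPKM, a PC3-Epi ratio of 9.31, because it includes the MIR1292 transcript at 0, 960, 184 and 199.8 FPKM.

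**Figure D1:**
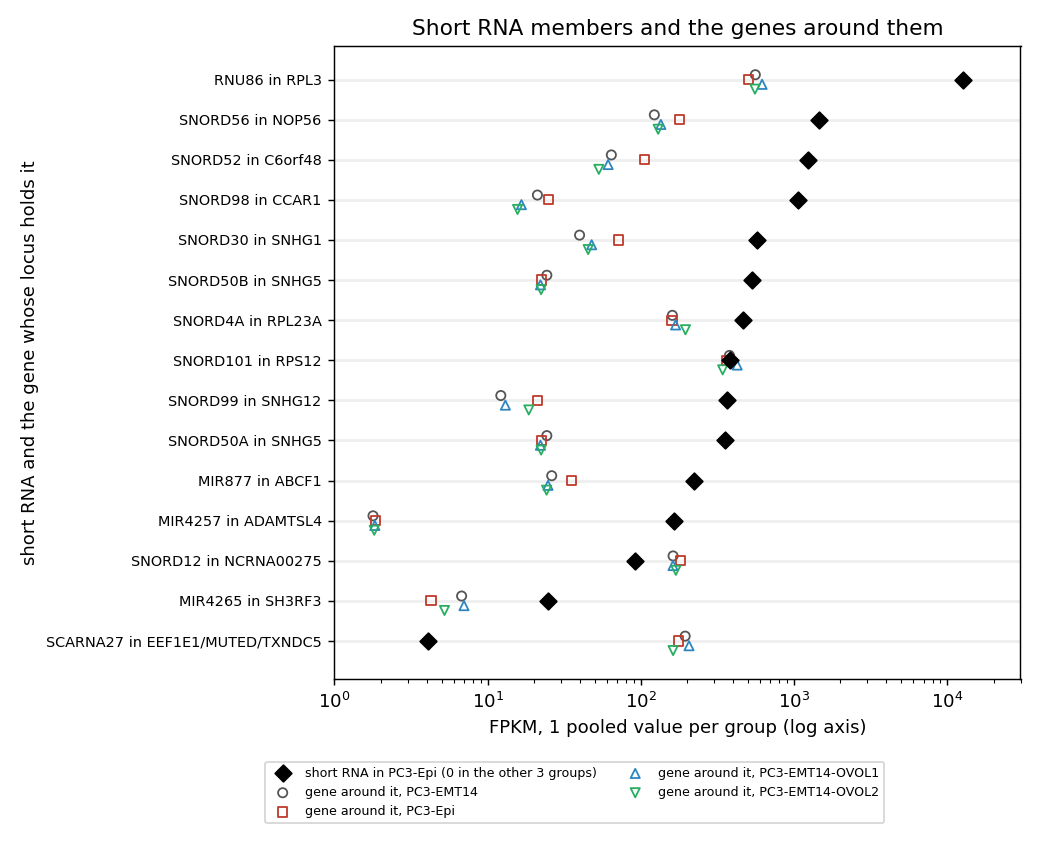
FPKM (log axis, 1 pooled value per group) of 15 short RNA members in PC3-Epi (black diamonds) and of the gene in the same locus, short transcripts left out, in each of the 4 groups (open symbols). The open symbols of a row lie close together, with ratios of PC3-Epi over PC3-EMT14 from 0.636 to 1.79, while each diamond stands for an entry at 0 in the other 3 groups.

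Being present in a single group was not particular to PC3-Epi among short RNA entries. Of 1261 short RNA entries, 1003 were listed at 0 in all 4 groups. Entries of at least 2 FPKM in 1 group and at 0 in the other 3 numbered 16 in PC3-Epi, 22 in PC3-EMT14, 20 in PC3-EMT14-OVOL1 and 15 in PC3-EMT14-OVOL2. The highest of these were RNU86 in PC3-Epi, SNORD29 at 2415 FPKM in PC3-EMT14, SNORD102 at 960 in PC3-EMT14-OVOL1 and MIR3124 at 85.3 in PC3-EMT14-OVOL2. No entry other than a short RNA had this pattern in any group. Entries of at least 100 FPKM numbered 39 in PC3-Epi, 19 in PC3-EMT14, 25 with OVOL1 and 7 with OVOL2, and 53 of the 61 that reached 100 FPKM in any group were at 0 in at least 1 group. Short RNA entries met the PC3-Epi conditions (at least 2 FPKM and a ratio of at least 4) in 4.84% of cases and all gene entries in 1.31%. How size selection of the libraries and the depth of each group bear on these values was not tested.

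AMH and SCRIB, members by their gene entries, owe their place to a short transcript counted with them. AMH encodes anti-Müllerian hormone, and its entry was at 1.09 FPKM in PC3-EMT14, 352 in PC3-Epi, 1.08 with OVOL1 and 0.914 with OVOL2. The AMH transcript itself was at 1.09, 1.01, 1.08 and 0.914 FPKM, and the MIR4321 transcript, at chr19:2250638-2250717 (GRCh37, plus strand, 80 bases) inside an AMH exon, was at 351 FPKM in PC3-Epi and 0 elsewhere. SCRIB encodes a scaffold protein of basolateral polarity, and its entry was at 35.2 FPKM in PC3-EMT14, 254 in PC3-Epi, 39.3 with OVOL1 and 42.3 with OVOL2. The MIR937 transcript made up 81.3% of the PC3-Epi value, at 206 FPKM, and was at 0 in the other 3 groups. The main SCRIB transcript was at 26.8 FPKM in PC3-EMT14, 41.8 in PC3-Epi, 27.3 with OVOL1 and 32.3 with OVOL2, and the second at 8.43, 5.57, 11.9 and 9.96. When gene levels were rebuilt without short transcripts, 17 members were left, and they were the same 17 messenger RNA genes.

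**Figure D2:**
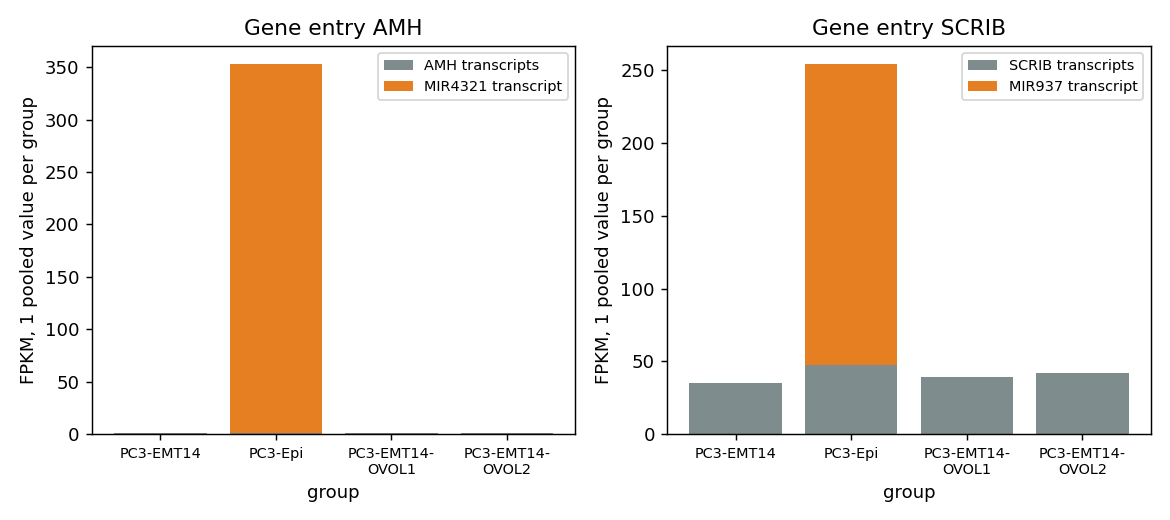
FPKM (1 pooled value per group, bars from 0) of the gene entries AMH and SCRIB in the 4 groups, split into the gene's own transcripts (grey) and the microRNA transcript filed under it (orange). The orange part appears in PC3-Epi alone, at 351 FPKM for MIR4321 and 206 for MIR937, and the AMH transcript itself is near 1 FPKM in every group.

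The 17 messenger RNA members ranged from 2.08 to 294 FPKM in PC3-Epi, with a median of 6.28, and their PC3-Epi ratios from 4.12 to 46.5, with a median of 7.70. These ratios depend on the added 0.1 FPKM, and the median was 9.34 with 0.01 and 3.70 with 1 FPKM added. Their median ratio was 1.00 with OVOL1 (range 0.808 to 1.23) and 1.15 with OVOL2 (range 0.871 to 1.22), as the limits require. The direct table holds the same pooled values, so its ratios are nearly fixed by the selection. In that table of PC3-EMT14-OVOL2 against PC3-EMT14-OVOL1, their ratios ran from 0.842 to 1.43 with a median of 1.05, and 14 of 17 lay in the same limits. Both OVOL ratios lay in the limits for 70% of all gene entries and for 67.2% of those at 2 FPKM or more in PC3-Epi. Among the 303 entries high in PC3-Epi the share was 11.6% (35), and 7.14% (17 of 238) with short RNA entries left out. Of the 303, 136 (44.9%) were at least 2-fold above PC3-EMT14 with both OVOLs, and 1.32% of all entries were. The PC3-Epi and both OVOL ratios share the PC3-EMT14 samples, so a low PC3-EMT14 value raises all 3 together, and nothing is read from these shares. A further 42 were so with OVOL2 alone, 25 with OVOL1 alone, and 13 were under 0.8 with both. Without entries recognized by name as short RNA, or led by one, these counts were 123 (both), 34 (OVOL2 alone), 11 (OVOL1 alone) and 10 (under 0.8 with both). The 11 still hold the non-coding RNAs SNAR-B1 and SNAR-B2, which have other names.

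**Figure D3:**
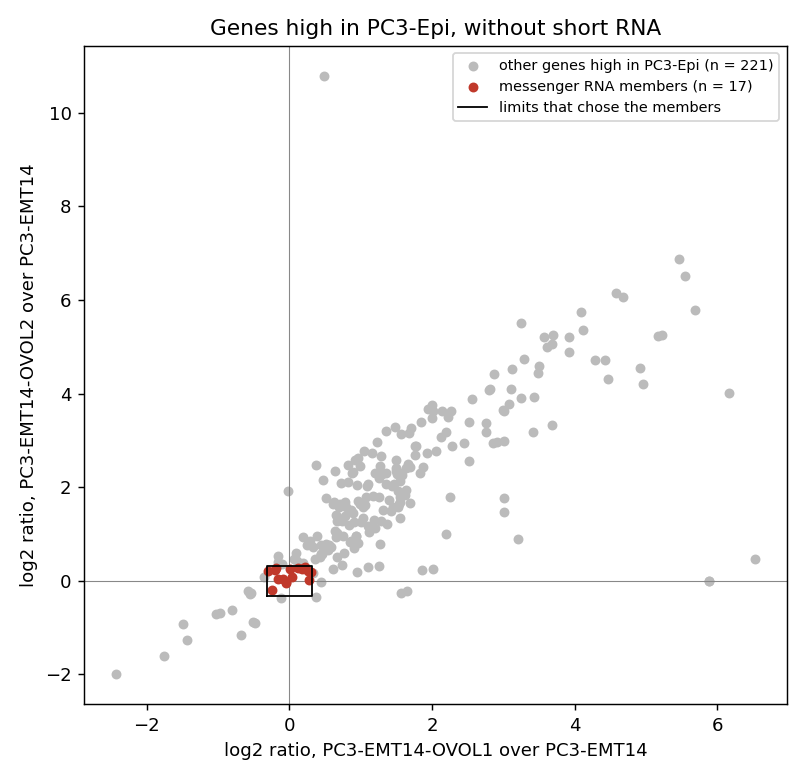
Log2 ratio over PC3-EMT14 with OVOL1 (horizontal) and with OVOL2 (vertical) for 238 gene entries high in PC3-Epi, each point being 1 entry. Entries recognized by name as short RNA, or led by one, were left out. The box shows the limits that chose the 17 members (red), and most of the other 221 genes lie above and to the right of it.

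Several of the messenger RNA members act in adhesion and signalling at the cell surface. ITGB6 encodes the integrin beta 6 chain, which is largely restricted to epithelia and pairs with the alpha V chain to activate latent TGFβ. ITGB6 was at 0.079 FPKM in PC3-EMT14, 6.28 in PC3-Epi, 0.066 with OVOL1 and 0.082 with OVOL2. SYK, a non-receptor tyrosine kinase best known from immune receptors and also present in epithelial cells, was at 0.072, 7.89, 0.093 and 0.102 FPKM in the same order. The higher of both OVOL lines had 1.31% of the PC3-Epi level for ITGB6 and 1.30% for SYK. IGSF9, an adhesion protein of the immunoglobulin superfamily, was at 1.53 FPKM in PC3-EMT14, 7.05 in PC3-Epi, 1.74 with OVOL1 and 1.80 with OVOL2. CCBP2, a decoy receptor for inflammatory chemokines now named ACKR2, was at 0.365, 3.68, 0.358 and 0.438 FPKM. SEMA3E, a secreted guidance protein that binds plexin D1, was at 0.331, 2.08, 0.243 and 0.386 FPKM. The last 3 were at 0.331 FPKM or more in PC3-EMT14, while ITGB6 and SYK were under 0.1.

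Genes of trafficking, calcium and second messenger signalling came next. S100A2, an EF-hand calcium-binding protein of basal epithelia, was by far the highest, at 69.7 FPKM in PC3-EMT14, 294 in PC3-Epi, 74.0 with OVOL1 and 81.9 with OVOL2. SNX19, a sorting nexin, was at 2.66, 14.1, 3.03 and 3.17 FPKM in the same order. EPN3, an epsin adaptor of clathrin-coated vesicles found in epithelia, was at 0.545, 11.7, 0.662 and 0.536 FPKM, a PC3-Epi ratio of 18.3. GUCY1A3 (now GUCY1A1), the alpha subunit of the nitric oxide receptor guanylate cyclase, was at 1.10 FPKM in PC3-EMT14, 8.78 in PC3-Epi, 0.928 with OVOL1 and 1.27 with OVOL2. PRR5L, which binds mTOR complex 2, was at 0.891, 7.54, 1.10 and 1.00 FPKM. In each of these genes PC3-Epi stood alone and the other 3 groups lay close together. SNX19 and S100A2 lie near the upper limit with OVOL2, and both, like SORBS2, left the set when the OVOL ratios were divided by a median. That median was 0.995 for OVOL1 over 11929 genes and 0.965 for OVOL2 over 11914 genes, not over all entries.

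ACTG2, TAGLN and SORBS2 encode actin and actin-associated proteins. ACTG2, smooth muscle gamma actin, was at 0.362 FPKM in PC3-EMT14, 5.39 in PC3-Epi, 0.284 with OVOL1 and 0.293 with OVOL2. TAGLN, the actin-binding protein transgelin, was on the list of mesenchymal markers, yet was at 0.585, 2.86, 0.499 and 0.588 FPKM in the same order, higher in the epithelial cells. It was the single one of the 20 mesenchymal markers to be high in PC3-Epi, while the summed level of the 20 was 437 FPKM in PC3-EMT14, 146 in PC3-Epi, 319 with OVOL1 and 192 with OVOL2. VIM made up most of the PC3-EMT14 sum, and the other 19 summed to 166 FPKM in PC3-EMT14, 103 in PC3-Epi, 135 with OVOL1 and 115 with OVOL2, with FN1 (ratio 0.918 in PC3-Epi) nearly level and SNAI1 higher in PC3-Epi (1.77). SORBS2, an adaptor of actin-based adhesions, was at 0.238, 2.31, 0.194 and 0.301 FPKM.

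The remaining genes serve metabolism, replication and ion flow. MCM10, which helps to start the replication helicase, was at 1.86 FPKM in PC3-EMT14, 7.95 in PC3-Epi, 2.20 with OVOL1 and 2.10 with OVOL2. Another 3 genes were close to silent outside PC3-Epi. FOXRED2, a flavoprotein of the endoplasmic reticulum, was at 2.72 FPKM in PC3-Epi and between 0.004 and 0.010 in the other 3 groups. KCNK5, the two-pore potassium channel TASK-2 of transporting epithelia, was at 2.37 FPKM in PC3-Epi and at most 0.005 elsewhere. CHDH, the choline dehydrogenase of betaine synthesis, was at 2.31 FPKM in PC3-Epi and at most 0.007 elsewhere. At such levels the 0.1 FPKM added to both values sets the OVOL ratios of these 3 genes. FOXRED2, for example, was at 0.00398 FPKM in PC3-EMT14 and 0.00996 with OVOL2 in their shared table. With 0.01 FPKM added, SYK, PRR5L, SORBS2 and SEMA3E also left the set, and SYK was at 0.069 FPKM in PC3-EMT14 and 0.102 with OVOL2 in that table.

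**Figure D4:**
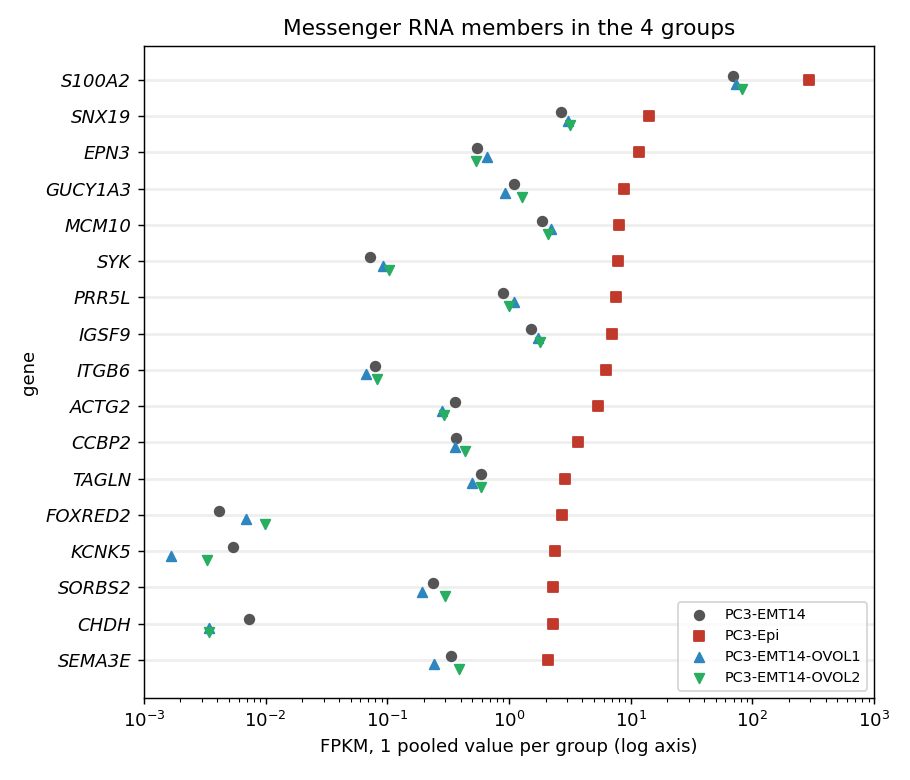
FPKM (log axis, 1 pooled value per group) of the 17 messenger RNA members in the 4 groups, ordered by their PC3-Epi level. PC3-Epi (red squares) lies to the right in every row, and the other 3 groups lie far to its left, from 69.7 FPKM for S100A2 in PC3-EMT14 down to about 0.01 or less for FOXRED2, KCNK5 and CHDH, whose 3 points are spread at these low levels.

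Another view of the same values is the share of the PC3-Epi level that was reached. The conditions cap this share for the members. Neither OVOL line had more than 27.9% of the PC3-Epi level of any messenger RNA member (S100A2), and for 7 of the 17 the higher of both lines had under 10%. At least 2-fold up with both OVOLs were 123 entries not recognized as short RNA. Of these 123, 70 reached 50% or more of their PC3-Epi level, and 4 stayed under 10%. Both sets were chosen by these ratios, so the contrast between them is no result. The condition on the ratio leaves out genes that stayed as far from PC3-Epi as members did. Of the 238 entries high in PC3-Epi and not recognized as short RNA, 36 stayed under 10% of their PC3-Epi level with both OVOLs. Among these 36, 29 were not members. RAB25, a GTPase of apical recycling named here after its values were seen, was at 0.057 FPKM in PC3-EMT14, 24.2 in PC3-Epi, 0.108 with OVOL1 and 0.122 with OVOL2, at most 0.503% of the PC3-Epi level, but its OVOL ratios of 1.34 and 1.43 lay outside the limits. GRHL2, a grainyhead factor that activates epithelial genes, was counted as at least 2-fold up with both OVOLs while reaching 3.70% of its PC3-Epi level, at 15.0 FPKM in PC3-Epi, 0.556 with OVOL1 and 0.544 with OVOL2. Thus the members are those whose ratios, after 0.1 FPKM was added, lay in the limits, not all those that stayed low.

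The 22 gene lists (494 entries measured) covered epithelial functions, signalling, immunity, metabolism, HOX and germ line genes. They also held markers of prostate lineage, mesenchymal cells and macrophages. Of the list entries, 56 were high in PC3-Epi (1.31% of all entries were). At least 2-fold up with both OVOLs were 35 of these 56. Of all entries high in PC3-Epi, 44.9% were so, and 51.7% without those recognized as short RNA or led by one. Members among them were 2, KCNK5 among 37 ion channels and transporters and TAGLN among 20 mesenchymal markers. That is 0.405% of the list entries, beside 0.151% of all gene entries, and 3.57% of the list entries high in PC3-Epi, beside 11.6% of all entries high there (7.14% without short RNA entries). None of the 25 genes of adherens and tight junctions was a member. Of these 25, 9 were high in PC3-Epi, and 7 of these 9 were at least 2-fold up with both OVOLs. At a member share of 7.14%, so few genes could well hold no member, and nothing is read from this. Of the 15 epithelial markers, 8 were high in PC3-Epi, 7 of these 8 were up with both OVOLs, and RAB25 was the other one. The 12 desmosome genes had none high in PC3-Epi and the 18 keratins had 1. No test was made over these lists, and the median log2 ratio of PC3-Epi over PC3-EMT14 was 1.66 for the junction list and 2.94 for the epithelial markers, beside 0 over all 23170 gene entries. With the OVOLs the median log2 ratio of the junction list was 0.42 (OVOL1) and 0.79 (OVOL2), and that of the epithelial markers 1.17 and 1.67, beside 0 over all entries with either.

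Relatives and partners of the members, 59 genes chosen after the members were known, included no other member, and 5 of them were high in PC3-Epi. The 10 other S100 genes examined had differing values, and 4 of them (S100A4, S100A6, S100A10 and S100A11) also lay within the limits with both OVOLs. S100A9, an inflammatory calcium-binding protein, was at 1.76 FPKM in PC3-EMT14, 304 in PC3-Epi, 130 with OVOL1 and 29.1 with OVOL2. S100A14 was at 1.32, 372, 49.9 and 51.4 FPKM in the same order. S100P was at 21.5, 117, 143 and 188 FPKM, above its PC3-Epi level with both OVOLs. S100A1 was at 0.493, 2.34, 0.290 and 0.399 FPKM. S100A2 lies with S100A9, S100A14 and S100A1 in the gene cluster of chromosome 1 (its own locus is chr1:153533585-153538306, hg19), and its flat OVOL ratios were a condition of its selection.

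All 6 genes of the MCM2 to MCM7 helicase were higher in PC3-Epi, like MCM10, and stayed nearer to PC3-EMT14 with the OVOLs. Their PC3-Epi ratios ran from 1.96 (MCM5) to 3.66 (MCM4), their OVOL1 ratios from 1.13 to 1.31 and their OVOL2 ratios from 1.08 to 1.42. MCM4, which missed the PC3-Epi ratio by little, was at 14.5 FPKM in PC3-EMT14, 53.2 in PC3-Epi, 16.7 with OVOL1 and 16.4 with OVOL2. The part of growth rate in these values was not tested.

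**Figure D5:**
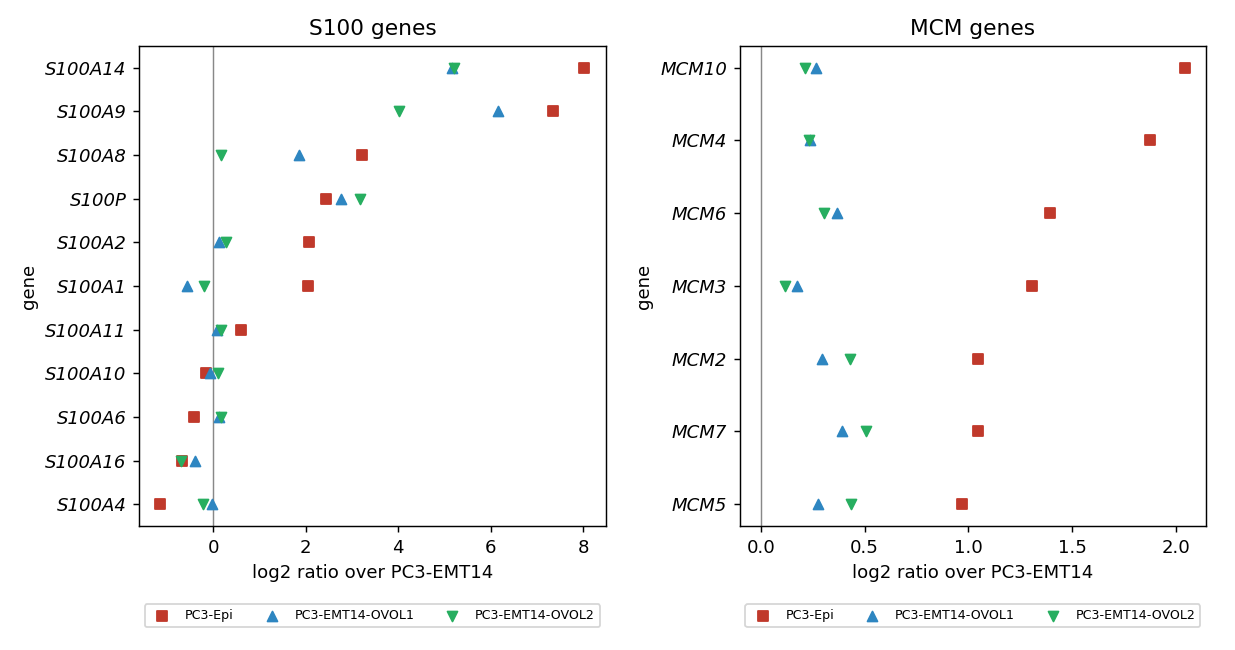
Log2 ratio over PC3-EMT14 of 11 S100 genes (left) and 7 MCM genes (right) in PC3-Epi and both OVOL lines, 1 pooled value per group and gene. S100A14, S100A9 and S100P lie to the right with both OVOLs while S100A2, selected for this, and S100A4, S100A6, S100A10 and S100A11 stay near 0, and every MCM gene lies further right in PC3-Epi than in the OVOL lines.

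Other relatives and partners of the members differed in their patterns. ITGAV, the alpha V partner of ITGB6, was at 5.86 FPKM in PC3-EMT14, 10.3 in PC3-Epi, 6.12 with OVOL1 and 8.11 with OVOL2. ITGB8, another beta chain that pairs with alpha V, was at 0.848, 3.64, 1.03 and 0.804 FPKM and missed the PC3-Epi ratio by little (3.94). ITGB4, the beta chain of hemidesmosomes, was at 102, 125, 209 and 269 FPKM, at least 2-fold up with both OVOLs. GUCY1B3, the beta partner of GUCY1A3, was at 2.58, 5.08, 1.53 and 1.57 FPKM. EPN1 and EPN2, the widely expressed epsins, had PC3-Epi ratios of 0.841 and 0.794. The PRR5 entry, which it shares with ARHGAP8, was at 3.47, 16.4, 8.44 and 8.25 FPKM, so this relative of PRR5L was high in PC3-Epi and at least 2-fold up with both OVOLs. ACTA2, the smooth muscle alpha actin, was at 1.08, 0.349, 0.791 and 0.996 FPKM, the opposite of ACTG2 in PC3-Epi. MYL9, a myosin light chain of contractile cells, was at 10.6, 24.0, 8.91 and 8.86 FPKM, higher in PC3-Epi alone like ACTG2 and TAGLN.

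The 17 messenger RNA members had 42 transcripts in the files (7 genes had a single one, whose values are those of the gene), 30 of them at 0.5 FPKM or more in PC3-Epi. Of these 30, 24 had a PC3-Epi ratio of at least 4, 15 lay within the limits with both OVOLs, and 3 were at least 2-fold up with an OVOL. One of these 3 was the main PRR5L transcript (53.4% of the PC3-Epi level), at 8.91e-05 FPKM in PC3-EMT14, 4.02 in PC3-Epi, 0.145 with OVOL1 and 0.011 with OVOL2. TAGLN had a transcript at 0.249 FPKM in PC3-EMT14, 2.59 in PC3-Epi, 0.215 with OVOL1 and 0.250 with OVOL2, and another at 0.335, 0.268, 0.285 and 0.338 FPKM, so its difference sat in one transcript. The main SYK transcript was at 4.84 FPKM in PC3-Epi and listed at 0, or under 0.001, in the other 3 groups. Another SYK transcript (26.7% of the PC3-Epi level) was at 0.072 FPKM in PC3-EMT14, 2.10 in PC3-Epi, 0.093 with OVOL1 and 0 with OVOL2. A minor one, among the 3 at least 2-fold up, was at 0.868 FPKM in PC3-Epi, 0.102 with OVOL2 and under 0.001 in the other groups. The SYK gene value with OVOL2 thus summed a higher and a lower transcript, both at low levels. The 2 MCM10 transcripts parted, at 1.03, 5.36, 1.95 and 1.60 FPKM and at 0.822, 2.59, 0.251 and 0.504 FPKM, so the flat gene value with the OVOLs summed a higher and a lower transcript. A minor IGSF9 transcript, listed at 0 in PC3-EMT14, was at 1.05 FPKM in PC3-Epi, 0.111 with OVOL1 and 0.253 with OVOL2. With 1 pooled value per group, the split of fragments between transcripts has no error estimate.

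The 35 members lay on 14 chromosomes, with 8 on chromosome 6 (7 of them short RNA entries), and the 17 messenger RNA genes on 11, with at most 3 on any one (SNX19, PRR5L and TAGLN on chromosome 11). SNORD50A and SNORD50B were the only 2 that adjoined. Among genes within 1 Mb of the locus of a messenger RNA member and at 1 FPKM or more in PC3-Epi or PC3-EMT14, the median log2 PC3-Epi ratio ran from -0.32 (around GUCY1A3) to 0.72 (around MCM10), beside -0.02 over the 12274 genes at such a level, and 11 of the 17 had no neighbour with a ratio of at least 4, near the share among those 12274 genes (67.6%). The other 6 were S100A2, SNX19 with ST14 nearby, ACTG2 with LOXL3, CCBP2 with VIPR1 and FAM198A, TAGLN with TMPRSS13, and FOXRED2 with RASD2 and MB. ST14, encoding the protease matriptase, was at 0.532 FPKM in PC3-EMT14, 135 in PC3-Epi, 28.9 with OVOL1 and 55.8 with OVOL2, whereas SNX19 (chr11:130745766-130786382, hg19) had ratios of 1.16 with OVOL1 and 1.22 with OVOL2.

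Promoters of the members were searched for letters that bind regulators of EMT. CACCTG, read on both strands (CAGGTG on the other), is the E-box to which ZEB1 and the SNAI factors bind. CCGTTA was taken for OVOL, AACCGGTT for the grainyhead factors and TATAAA for the TATA box. The OVOL2 consensus used by the authors also allows A for the first C of CCGTTA and T for the second. Those forms were not searched, so a window without CCGTTA may still hold OVOL letters. Windows from 250 bases before to 50 after each start (RefSeq, GRCh38.p14) were found for 13 of the 17 genes, not for SNX19, EPN3, CCBP2 and TAGLN. CACCTG was in 5 of the 13 (38.5%; S100A2, SYK, PRR5L, IGSF9 and ITGB6), in 55 of 84 genes at least 2-fold up with both OVOLs (65.5%), and in 24.9% of 16169 genes with a window. CCGTTA and AACCGGTT were in none of the 13, beside 4.53% and 0.210% of all, and TATAAA was in 4 (30.8%), beside 12.8%. Genes with several start sites have more windows, and a match is a description of letters, not of binding. The 3 windows below are shown because their genes bear the E-box and have large PC3-Epi ratios (ITGB6 and SYK, the largest with 0.1 FPKM added but not with 0.01) or the highest level (S100A2), and ITGB6 was chosen after its values were seen. They lie at chr2:160200223-160200522 (minus strand), chr9:90801350-90801649 (plus strand) and chr1:153563838-153564137 (minus strand), and CACCTG (in capitals) starts at base -70, 15 and -18 from the start site.
ITGB6: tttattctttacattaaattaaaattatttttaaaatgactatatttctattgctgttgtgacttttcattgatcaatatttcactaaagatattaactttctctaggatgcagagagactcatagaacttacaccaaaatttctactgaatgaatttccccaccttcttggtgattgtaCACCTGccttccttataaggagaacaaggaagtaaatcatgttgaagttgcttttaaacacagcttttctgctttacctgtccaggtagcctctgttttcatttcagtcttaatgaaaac
SYK: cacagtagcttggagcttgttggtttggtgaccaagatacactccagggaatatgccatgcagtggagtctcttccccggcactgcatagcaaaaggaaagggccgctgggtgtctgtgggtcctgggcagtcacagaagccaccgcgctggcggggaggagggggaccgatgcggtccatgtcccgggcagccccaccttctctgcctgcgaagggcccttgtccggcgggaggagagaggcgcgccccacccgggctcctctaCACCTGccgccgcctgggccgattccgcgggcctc
S100A2: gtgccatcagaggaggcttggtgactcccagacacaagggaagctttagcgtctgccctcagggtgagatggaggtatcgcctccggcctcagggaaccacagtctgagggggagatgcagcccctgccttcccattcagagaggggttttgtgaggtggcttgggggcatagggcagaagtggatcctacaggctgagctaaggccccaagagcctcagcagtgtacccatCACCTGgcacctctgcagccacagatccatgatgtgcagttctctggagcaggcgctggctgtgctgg

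The thresholds cut through a continuous range. Just inside the PC3-Epi level were SEMA3E at 2.08, CHDH at 2.31 and SORBS2 at 2.31 FPKM, and just outside METTL7A at 1.60, CDC42EP5 at 1.52 and OR7E91P at 1.36 FPKM. For the PC3-Epi ratio, MCM10 (4.12), S100A2 (4.21) and TAGLN (4.32) were just inside, and ITGB8 (3.94), SNORA5A (3.88) and MCM4 (3.66) just outside. At the upper OVOL limit, SCRIB (1.24 with OVOL2), PRR5L (1.23 with OVOL1) and SNX19 (1.22 with OVOL2) were inside, and CACNG4 (1.26 with OVOL1), C20orf191 (1.28 with OVOL2) and HNMT (1.30 with OVOL2) outside. At the lower limit, SEMA3E (0.808 with OVOL1), ACTG2 (0.846 with OVOL1) and GUCY1A3 (0.870 with OVOL1) were inside, and GPR17 (0.783 with OVOL1), LXN (0.773 with OVOL2) and CAPS (0.686 with OVOL1) outside. The values come from single pooled groups. PC3-EMT14 and its 2 OVOL lines share one isolation from PC3-Epi, so a difference that came with that isolation and one that belongs to EMT cannot be told apart.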

How the data were processed

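The authors aligned paired reads to hg19 with TopHat 2.0.2, and Cuffdiff 2.0.2 estimated the levels with upper-quartile scaling and corrections for multiply mapped reads and sequence bias. The deposited values are FPKM per gene entry (23170) and isoform entry (37557) in 8 tables, 1 pooled value per group, from 10 samples. Each table was normalized on its own, so the PC3-EMT14 value differs slightly between tables (by a median factor of 0.979 in the OVOL1 and 0.969 in the OVOL2 table, over the PC3-Epi table). PC3-EMT14 values in the text are those of the PC3-Epi table, and each ratio uses the PC3-EMT14 value of its own table. Tables also hold the authors' fold changes, test statistics, p-values and q-values, which were not used. The deposited test status served as an alternative.

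Ratios were formed after adding 0.1 FPKM to both values, with Python 3.11.15 and pandas 2.3.3. The selection was tested on simulated data. With no values per sample, no test, standard deviation or interval was computed, and depth per sample is unknown. Short RNA entries were recognized by name (snoRNA, small Cajal body RNA, RNU and microRNA symbols). Other non-coding RNAs, such as SNAR-B1 and SNAR-B2, were therefore not removed with them. Members and gene lists were chosen with earlier results of these data known. Named genes are the 15 members of highest PC3-Epi FPKM, the 8 of largest PC3-Epi ratio at 0.5 FPKM or more in PC3-EMT14, members on a list or adjoining, genes at the thresholds and label checks; the rest of the 17 messenger RNA members, RAB25, GRHL2, their relatives and ITGB6's promoter were added after their values were seen. Alternatives were another added value, floor, ratio or window, scaling by the median ratio, filters on PC3-EMT14 level and test status, the direct table and isoform entries. Removing short RNA entries was chosen after seeing the data. Locus coordinates are hg19 from the files, where a locus may hold several genes.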

Additional observations from a re-analysis of the deposited data

How the results depend on the processing

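The count of 35 stayed within 1.5 times under 6 alternatives, from 25 (PC3-Epi ratio of at least 8) to 42 (PC3-Epi at least 1 FPKM). It was also 35 with the OVOL2 ratio taken through the direct table, which holds the same pooled values, and 41 of 432 in isoform entries, another unit. It was 170 with a PC3-Epi ratio of at least 2, 53 with OVOL ratios between 0.67 and 1.5, 20 with a narrower window from 0.9, 10 with at least 0.5 FPKM in PC3-EMT14, 14 with test status OK in all 3 tables, and 17 without short RNA entries, an alternative chosen after seeing the data. Over the entries high in PC3-Epi the share of 11.6% became 22.5%, 17.5%, 6.60%, 6.90%, 5.60% and 7.14% in the same order, and 18.5% with 1 FPKM added in place of 0.1. The 136 entries at least 2-fold up with both OVOLs became 76 with 1 FPKM added and 90 with a PC3-Epi ratio of at least 8. Of the 17 messenger RNA members, 10 were kept with 0.01 FPKM added (SYK, PRR5L, FOXRED2, KCNK5, SORBS2, CHDH and SEMA3E were lost) and 8 with 1 FPKM added. The PC3-Epi ratios of low genes moved most, with 0.01 and 1 FPKM added giving 96.7 and 8.29 for SYK, 70.9 and 6.75 for ITGB6, 193 and 3.70 for FOXRED2, 155 and 3.35 for KCNK5, and 134 and 3.28 for CHDH. The narrower window kept 4 (ITGB6, FOXRED2, KCNK5 and CHDH). No paired analysis was possible because the tables hold 1 pooled value per group, and leaving out samples was not possible for the same reason. Depth is unknown, so the precision of low values such as those of FOXRED2, KCNK5 and CHDH cannot be stated.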
